A study of Mus musculus with 18 samples.

Results

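The MYC, MAX and MXD network was followed here through its 8 genes Myc, Mycn, Max, Mxd1, Mxd3, Mxd4, Mxi1 and Mnt, which were chosen by name. They are 8 of 43432 genes in the RNA-seq table, and they carry 34 of the 27729 peaks in the mouse list of protein-bound RNA. The series holds 18 libraries from T cells of C57BL/6 mice (C57BL/6 J in the study's methods), grown from spleen and lymph node cells that were pooled from several animals. Of these, 8 are RNA-seq libraries, with 1 library per cell type, state and drug treatment. The other 10, of which 6 are from Th2 and 4 from CD8 cells, are GCLiPP libraries, a method in which ultraviolet light fixes proteins to RNA, all proteins are biotinylated and captured, and the stretches of RNA they shield from RNase T1 are sequenced.

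CD8 T cells were cultured with IL-12 and IL-2, and Th2 cells with IL-4, IL-2 and an antibody against interferon gamma. Cells of all groups were first activated with plate-bound anti-CD3 and anti-CD28, irradiated at 254 nm before harvest, and enriched for polyadenylated RNA. Stimulated cells received PMA and ionomycin, a drug pair that mimics T cell receptor signalling, for 4 h before harvest, and resting cells received fresh medium only. Cells given actinomycin D, which blocks RNA synthesis, are set against untreated cells of the same type and state. In the study's methods the drug, at 5 µg/mL, came after 4 h of PMA and ionomycin and was kept on for 0, 1, 2 or 4 h more. Which of these times the RNA-seq libraries had, and how resting cells were treated, is not given in the sources used here. Stimulated cells with actinomycin D were, by that account, stimulated first and given the drug afterwards. The study's methods describe another lysis reagent (Trizol LS) for drug-treated cells without saying whether these libraries used it, so drug and preparation cannot be told apart.

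MYC and its relative MYCN are transcription factors that work only when paired with MAX, and these pairs bind the E-box CACGTG and raise the transcription of growth, ribosome and metabolism genes. MXD1, MXD3, MXD4, MXI1 (also called MXD2) and MNT pair with the same MAX, bind the same sequence and recruit SIN3 corepressors and lower transcription. In lymphocytes MYC is known for its fast induction by antigen receptor signals and for driving growth before division. Myc mRNA is short-lived in most cells, and AU-rich sequence in its 3′ UTR is known to shorten its life.

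Protein-bound stretches were listed in the 3′ UTRs of 7 of the 8 genes. Myc, on mouse chromosome 15 (chr15:61985341-61990374, + strand, GRCm38/mm10), had 7 peaks in a 3′ UTR of 466 bases, and they covered 402 of these bases (86.3%). In 89.1% of the 10968 tested genes, counted by name, the number of peaks was lower, and 40.9% had none. The mean RNA level of 87.9% of tested genes was no higher than that of Myc. Mxi1, a MAX partner that opposes MYC, had 9 peaks over 15.5% of its 4074-base 3′ UTR. Mnt, the MAX partner found in most tissues, also had 9, over 26.0% of 2405 bases. Max had 4 peaks (21.6% of 1299 bases), Mxd1 had 3 (5.48% of 3829 bases), Mycn had 1 (7.67% of 913 bases) and Mxd3 had 1 (11.4% of 615 bases). Mxd4 had none in a 3′ UTR of 3105 bases, and the list gives only stretches that passed the authors' caller, so this sets no upper limit.

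**Figure D1:**
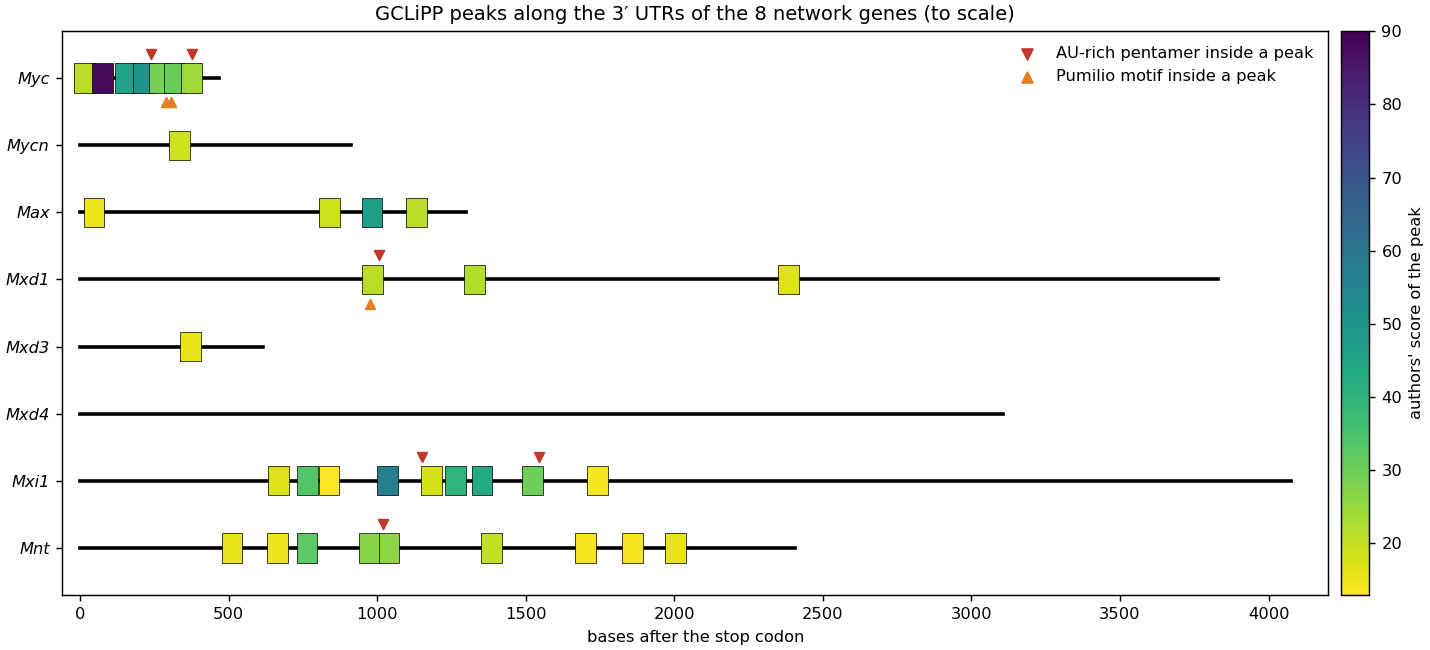
GCLiPP peaks on the 3′ UTR of each gene, drawn to scale in bases after the stop codon, with the colour giving the authors' score and triangles marking 2 motifs inside peaks. Peaks cover 86.3% of the Myc 3′ UTR, and Mxd4 has no peak.

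The authors' score, whose meaning the sources used here do not give, had a median of 24 over the list. Of the 34 peaks, 15 were at or above that median. The 7 Myc peaks scored 21, 88, 45, 50, 29, 31 and 24 in order from the stop codon. The highest of them was centred 74 bases after the stop codon, and 91.9% of all peaks, this one included, scored no higher. The top peak of Mxi1 scored 57, that of Max 47 and that of Mnt 32, and no peak of Mycn, Mxd1 or Mxd3 went above 22. The list pools all mouse GCLiPP libraries, so it holds no comparison between conditions.

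Sequence was read for all 34 peaks and for 26458 of all peaks. Short motifs known to bind RNA-binding proteins were searched on the transcript strand. The AU-rich pentamer AUUUA was in 7 of the 34 peaks (20.6%), against 7.90% of all peaks. The longer AU-rich element UAUUUAU, which contains the pentamer, was in 2 (5.88% against 1.32%). The Pumilio motif UGUANAUA, where N is any base, was in 3 (8.82% against 1.72%), and the CELF motif UGUUUGU was in 3 (8.82% against 1.43%). The CELF peaks, of Mnt and Mxi1, scored only 13 or 14. Among the 15 peaks at or above the median score of the list, 0 held the CELF motif, against 1.40% of all such peaks. The U run UUUUUU was in 3, all of them peaks of Myc (8.82% against 4.94%). The polyadenylation signals AAUAAA and AUUAAA were in 4 and 1 (11.8% against 6.56%, and 2.94% against 3.01%). Of these 7 motifs, at least 1 was in 14 of the 34 peaks (41.2%), against 21.8% of all peaks. In a window of 151 bases around each peak's centre it was 23 peaks (67.6%), against 42.3%. The peaks are few and those of Myc overlap, so the same AUUUA and the same Pumilio match are counted in 2 neighbouring Myc peaks each. Matches to the seeds of let-7 (CUACCUC), miR-17 (GCACUUU), miR-155 (AGCAUUA) and miR-34 (CACUGCC) were in 0 of the 34 peaks, against 0.306% to 1.03% of all peaks.

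Both AUUUA pentamers of the Myc 3′ UTR and both of its Pumilio matches lay inside peaks, but peaks cover 86.3% of that 3′ UTR, so most motifs there would. The following stretches are shown as examples of the AU-rich and Pumilio sequences inside peaks of Myc, Mxd1, Mnt and Mxi1. With actinomycin D the mRNAs of Myc, Mxd1 and Mnt fell, and that of Mxi1 did not pass. Mycn also fell, and its 1 peak held none of the motifs searched. Whether motifs in peaks go with a fall was not tested. Capitals mark the motif, letters are as transcribed, and all come from GENCODE M21 transcripts of GRCm38/mm10. The Myc pentamers begin 239 and 376 bases after the stop codon (chr15:61990135-61990164 and chr15:61990272-61990301, + strand). The Pumilio match shown begins at base 287 (chr15:61990184-61990213, + strand). The Mxd1 element (chr6:86649847-86649876, − strand) begins 1006 bases and the Mnt element (chr11:74844326-74844355, + strand) 1017 bases after the stop codon. The Mxi1 pentamer is at chr19:53372874-53372903 (+ strand).
Myc first AUUUA: uaacagauuuguAUUUAauuguuuuuuuaa
Myc second AUUUA: auaauuuuuuuuAUUUAaagacauuuucau
Myc Pumilio match: caauuuucccaUGUAAAUAgggccuugaaa
Mxd1 UAUUUAU: ccuauaaauacUAUUUAUucauuuuauaua
Mnt UAUUUAU: uuuuaaguggaUAUUUAUuacaaguggccu
Mxi1 AUUUA: agcacuugucucAUUUAauguaaagauuuu

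Of the other pentamers, Mxi1 had 9 in its 3′ UTR with 2 in peaks, Mxd1 had 5 with 1 in a peak, Mnt had 1 and it was in a peak, and Max and Mycn had 1 each outside peaks. Mxd3 and Mxd4 had no AUUUA. The 3′ UTR of Max held 1 UAUUUAU and 2 Pumilio matches, none of them in a peak.

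At the other end of the genes, RefSeq start sites (GRCm38.p6, 250 bases before to 50 after the start) were read for the E-box CACGTG, the sequence that these proteins bind themselves. It is its own reverse complement, so both strands were read at once. Start windows of 7 of the 8 genes were in the table, all but that of Myc. An E-box was found in 3 of the 7, against 8.09% of the 27025 genes in the table. The stretches are shown because they place the network's own binding sequence at its own genes, with the E-box in capitals. That of Max (chr12:76962234-76962263, − strand) begins 3 bases before the start. That of Mnt (chr11:74830789-74830818, + strand) begins 123 bases and that of Mxd4 (chr5:34187912-34187941, − strand) 219 bases before it.
Max E-box: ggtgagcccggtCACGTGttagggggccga
Mnt E-box: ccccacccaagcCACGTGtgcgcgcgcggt
Mxd4 E-box: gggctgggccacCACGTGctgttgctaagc
A match is only a description of the letters, since these data hold no measurement of binding to DNA.

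RNA levels are gene reads divided by 1 size factor per library, here called normalised reads. The 8 RNA-seq libraries held 24154849 to 31042504 gene reads. Those genes whose mean reached 50 normalised reads were tested (10972), and all 8 network genes were among them. The cell type labels went with the markers Cd4 and Cd8a. Cd4 gave 25.9 to 281 normalised reads in CD8 and 20061 to 39568 in Th2 libraries, and Cd8a gave 10516 to 15750 in CD8 and 1331 to 2401 in Th2 libraries. The RNA is bulk, so fewer cells of a kind and less RNA per cell cannot be told apart in any value below.

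Myc (ENSMUSG00000022346) was the member with the widest absolute range. With actinomycin D it had 1313 normalised reads in stimulated CD8, 1262 in resting CD8, 610 in stimulated Th2 and 666 in resting Th2 cells. Untreated cells had 12367 in stimulated CD8, 3854 in resting CD8, 12116 in stimulated Th2 and 4070 in resting Th2 cells. All drug-treated libraries were lower than all untreated ones, and among untreated cells both stimulated libraries stood above both resting ones.

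Mycn (ENSMUSG00000037169, chr12:12936096-12941914, − strand), a MYC relative best known from the nervous system and embryo, was far lower. With actinomycin D it had 108 normalised reads in stimulated CD8, 96.5 in resting CD8, 19.0 in stimulated Th2 and 11.96 in resting Th2 cells. Untreated cells had 716, 166, 267 and 111 in the same order. The lowest values rest on 20 reads in stimulated and 13 in resting drug-treated Th2 cells, and the highest and lowest libraries were 59.9-fold apart. The groups did not overlap, but the lowest untreated library (resting Th2) was close to the highest drug-treated one (stimulated CD8).

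Max (ENSMUSG00000059436, chr12:76937269-76962248, − strand), the shared partner, was the steadiest member. It had 2183, 1966, 2077 and 1763 normalised reads with actinomycin D in stimulated CD8, resting CD8, stimulated Th2 and resting Th2 cells, against 2633, 2247, 2118 and 1577 in untreated cells. The groups overlapped and the highest library was 1.67-fold above the lowest.

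Among the MAX partners that oppose MYC, Mxd1 (ENSMUSG00000001156, chr6:86647044-86669159, − strand) is known for its rise as cells stop dividing and mature. It had 1062, 612, 306 and 271 normalised reads with actinomycin D, against 3653, 997, 463 and 479 in untreated cells, in the order stimulated CD8, resting CD8, stimulated Th2, resting Th2. Untreated stimulated CD8 cells stood apart, and the 4 Th2 libraries were all lower than the 4 CD8 libraries.

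Mxd3 (ENSMUSG00000021485, chr13:55325168-55329758, − strand), the member known for expression in dividing cells, was low. In the order stimulated CD8, resting CD8, stimulated Th2, resting Th2 it had 151, 148, 115 and 199 normalised reads with actinomycin D, against 58.1, 219, 56.6 and 340 in untreated cells. The 2 untreated stimulated libraries were the lowest of all 8. Mxd3 shares 104 bases with Prelid1 on the other strand, which averaged 6362 normalised reads, and since strand use in counting is not given in the sources used here, Mxd3 values are uncertain. Prelid1 was itself higher in all 4 drug-treated libraries (6136 to 8823) than in the untreated ones (4558 to 5853), and its part in the Mxd3 values was not tested.

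Mxd4 (ENSMUSG00000037235, chr5:34173887-34187720, − strand), linked to resting and differentiated cells, had 544, 646, 1064 and 1312 normalised reads with actinomycin D, against 467, 951, 687 and 2111 in untreated cells. Untreated resting Th2 cells were highest. Of the 3823 stretches of 50 bases in its transcript, 459 also occur in transcripts of 129 other genes, so counting could have split or lost such reads.

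Mxi1 (ENSMUSG00000025025, chr19:53310506-53375810, + strand) had 3570, 2533, 2984 and 2067 normalised reads with actinomycin D, against 2953, 3397, 3420 and 4817 in untreated cells, with overlap. Mnt (ENSMUSG00000000282, chr11:74830920-74845725, + strand) had 443, 438, 445 and 502 with actinomycin D, against 1318, 785, 1274 and 910 in untreated cells. The Mnt groups did not overlap, and drug-treated libraries were within a narrow band while untreated stimulated ones stood above untreated resting ones.

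**Figure D2:**
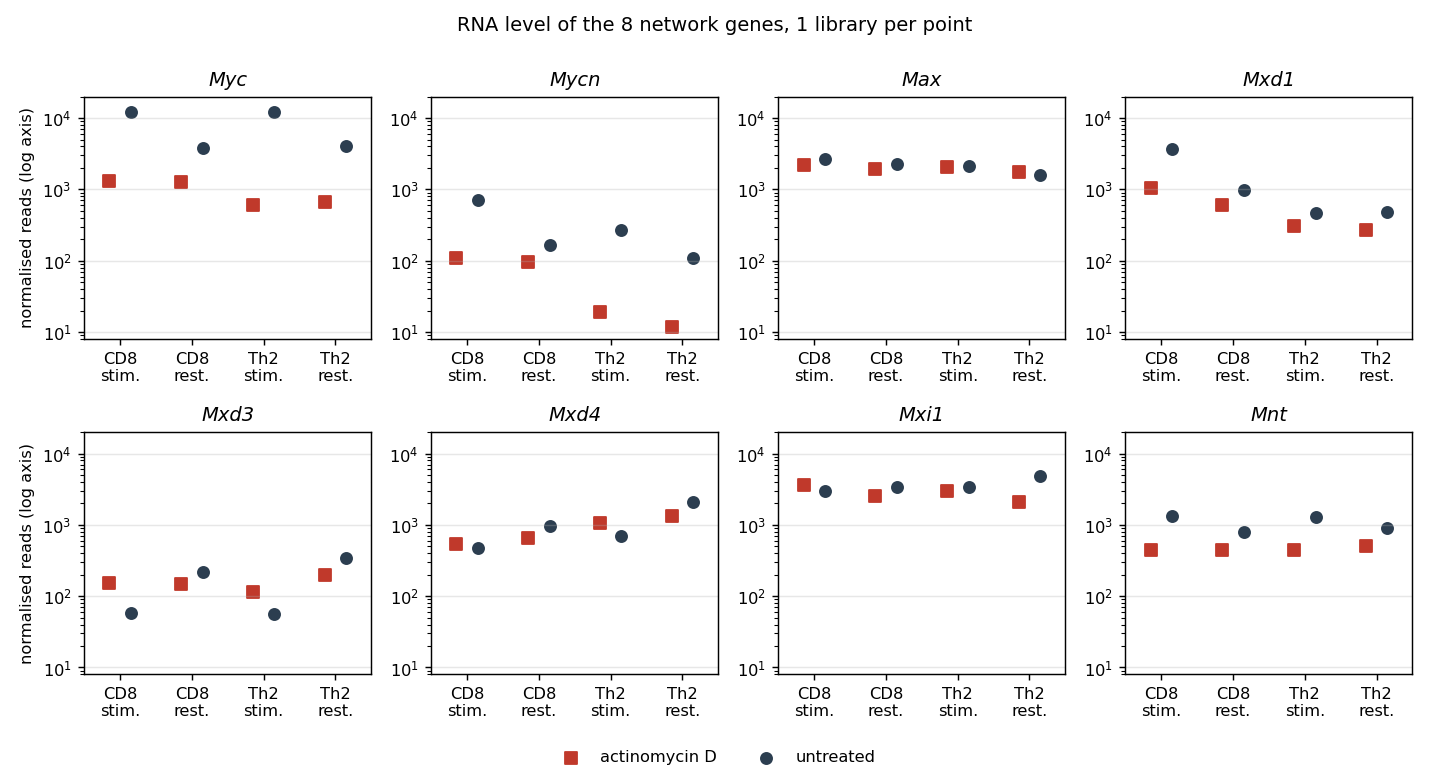
Normalised reads of each gene in each of the 8 RNA-seq libraries on a log axis, with actinomycin D libraries as red squares left of the untreated ones as dark circles. Myc, Mycn and Mnt separate completely by drug, and Max varies least.

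Per kilobase of the longest protein-coding transcript, Myc came first with 1938 normalised reads per kb on average over the 8 libraries and Max second with 1066. Mxi1 followed with 639, Mxd4 with 251, Mxd1 with 210, Mnt with 167, Mxd3 with 121 and Mycn with 69.9. Few neighbours were separated. Myc was above Max in 4 of 8 libraries only, the untreated ones, and Mxd1 above Mnt and Mnt above Mxd3 also in 4 of 8. Max was above Mxi1 in 7, Mxd4 above Mxd1 in 6, Mxd3 above Mycn in 6, and only Mxi1 above Mxd4 in 8 of 8. With all annotated exons merged as the length, Mxd4 had 115 per kb, Mxd1 139 and Mnt 165. This put Mnt above Mxd1 and both above Mxd4.

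The summed per-kilobase level of Myc plus Mycn was 602 and 576 in drug-treated CD8 cells and 268 and 289 in drug-treated Th2 cells, stimulated before resting. Untreated cells had 5557 and 1710 for CD8 and 5282 and 1782 for Th2. The sum of Mxd1, Mxd3, Mxd4, Mxi1 and Mnt moved far less. It was 1287, 1008, 1117 and 1067 with actinomycin D in stimulated CD8, resting CD8, stimulated Th2 and resting Th2 cells, against 1821, 1470, 1276 and 2059 in untreated cells. The ratio of the first sum to the second was 3.05 in stimulated and 1.16 in resting untreated CD8 cells. For untreated Th2 cells it was 4.14 when stimulated and 0.865 at rest. In all 4 drug-treated libraries it was under 1, with 0.468 and 0.571 in stimulated and resting CD8 and 0.240 and 0.271 in stimulated and resting Th2 cells. All these sums use the longest protein-coding transcript as the length. With all annotated exons merged, lengths grow unequally, for Mxd4 from 3872 to 8483 bases and for Myc from 2338 to 2717. A ratio near 1, as in untreated resting Th2 cells, could therefore change side with the length used. The make-up of the opposing arm also differed. Mxi1 gave 32.2% to 55.1% of it, Mxd1 gave 43.0% in untreated stimulated CD8 cells but 4.98% to 7.78% in Th2 libraries, and Mxd4 gave 13.9% to 31.8% in Th2 and 6.62% to 16.7% in CD8 libraries. These are mRNA levels, and protein was not measured.

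**Figure D3:**
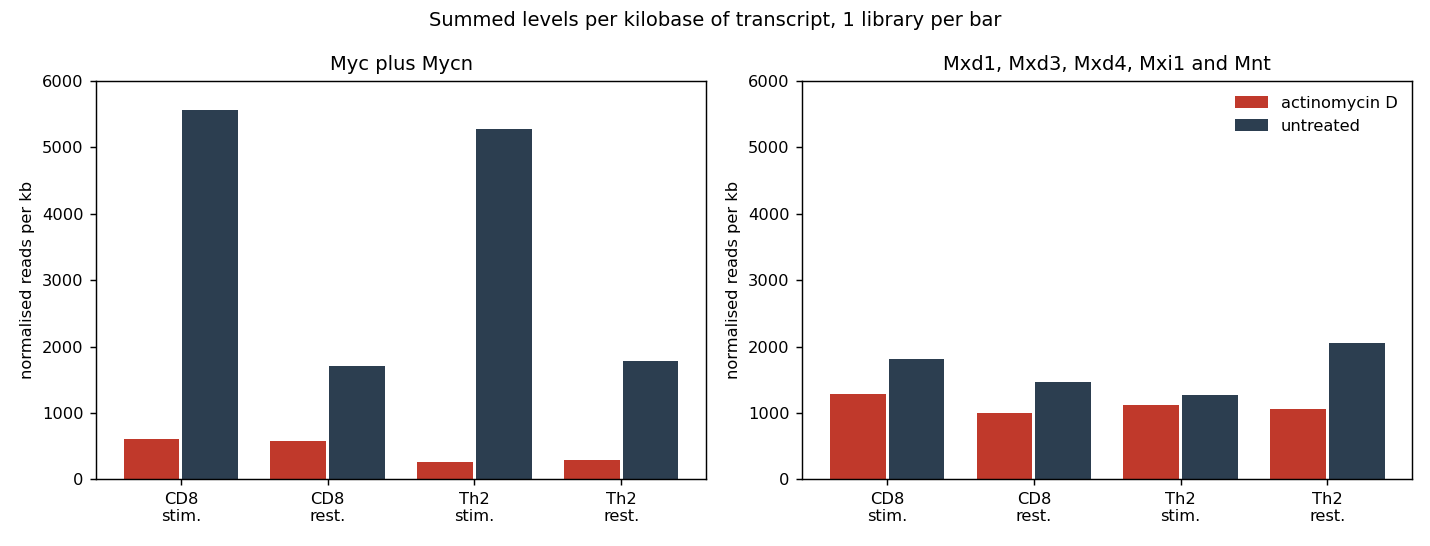
Summed normalised reads per kilobase in each library for Myc plus Mycn (left) and for the 5 MAX partners that oppose MYC (right), with actinomycin D bars in red left of untreated bars in dark blue. The left sums range between 268 and 5557, the right ones between 1008 and 2059.

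Actinomycin D libraries were set against untreated libraries of the same type and state, as 4 pairs, to see which of these mRNAs fall when synthesis stops. Values are scaled within each library, so a change is relative to the other mRNAs, and 21.9% of the tested genes were lower and 16.8% higher (38.7% in either direction) at an adjusted p under 0.05 (limma, Benjamini-Hochberg over all tested genes). Of the 8 network genes, 4 fell and 0 rose. Myc fell by 2.94 on the log2 scale (SE 0.40, adjusted p = 0.00408), a 7.68-fold difference. Only 0.738% of tested genes, Myc included, were as low or lower. Mycn fell by 2.58 (SE 0.48, adjusted p = 0.00975) and Mnt fell by 1.20 (SE 0.19, adjusted p = 0.00645). Mxd1 fell by 0.97 (SE 0.23, adjusted p = 0.0202). All 4 were lower in 4 of 4 pairs. The log2 difference of Myc was −3.23 in stimulated and −1.61 in resting CD8 cells, and −4.31 in stimulated and −2.61 in resting Th2 cells. For 3 of the 8 genes (Myc, Mycn and Mnt) all 4 drug-treated libraries lay below all 4 untreated ones, which was so for 17.8% of tested genes. Over the members the median log2 difference was −0.68, and over all tested genes it was 0.00.

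The remaining 4 genes did not pass. Max differed by −0.08 (95% interval −0.41 to 0.24), Mxd4 by −0.10 (−0.71 to 0.51), Mxi1 by −0.39 (−0.98 to 0.19) and Mxd3 by 0.26 (−0.74 to 1.26) on the log2 scale. Mxd3 went both ways, higher by 1.36 and 1.01 in the stimulated CD8 and Th2 pairs and lower (−0.56 and −0.77) in the resting ones. In a model of all 8 libraries that lets the drug difference vary with stimulation, Mxd3 passed for the stimulated pairs (1.19, adjusted p = 0.0125, limma). For the resting pairs in that model Mxd4 (−0.62, adjusted p = 0.0237) and Mxi1 (−0.82, adjusted p = 0.0163) passed. The spread behind these values comes from all 8 libraries, not from those pairs alone.

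Myc, Mycn and Mnt passed under all alternatives tried, with Myc between −3.77 and −2.11. Mxd1 did not pass with edgeR (−0.72, adjusted p = 0.0577), which was run without the drug-treated stimulated CD8 library. It also did not pass for the resting pairs in that model of all 8 libraries (−0.76, adjusted p = 0.177, limma). Nor did it pass in limma without the untreated stimulated CD8 library or its drug-treated partner (−0.71, adjusted p = 0.0545 and 0.0525). The same held without the untreated resting Th2 library or its partner (−1.03, adjusted p = 0.053 and 0.0534). The 76 cytosolic ribosomal protein genes made up 2.87% to 3.80% of reads with actinomycin D, against 1.84% to 2.19% in untreated libraries. Scaled to them, the median of all genes moved by −0.63 in this comparison, and Max then passed at −0.71 (adjusted p = 0.0342, limma), close to that shift, and Mxi1 at −1.02 (adjusted p = 0.0495).

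Stimulation was compared first in untreated cells, with the 2 cell types as replicates, to find the network's response to PMA and ionomycin. Here 2 of the 8 genes rose and 2 fell, against 6.59% of tested genes higher and 4.69% lower (11.3% in either direction). Myc rose by 1.63 on the log2 scale (SE 0.12, adjusted p = 0.0200, limma), 3.09-fold, with 1.68 in CD8 and 1.57 in Th2 cells. Mycn rose by 1.68 (SE 0.28, adjusted p = 0.0422), with 2.10 in CD8 and 1.27 in Th2 cells. Mxd3 fell by 2.23 (SE 0.28, adjusted p = 0.0330), 4.69-fold, and Mxd4 fell by 1.32 (SE 0.20, adjusted p = 0.0391), 2.50-fold, each in both cell types. So both genes that activate with MAX were higher, while those that oppose them did not move together. Mxd3, whose values are uncertain, and Mxd4 were lower. Mxd1 (0.91) and Mnt (0.62) differed upward and Mxi1 (−0.35) downward without passing.

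The remaining genes did not pass. Mnt differed by 0.62 (95% interval 0.20 to 1.03, adjusted p = 0.0703, limma), and passed when all 8 libraries shared 1 estimate of spread (0.62, adjusted p = 0.0222). Mxd1 differed by 0.91 (−0.44 to 2.27), made of 1.87 in CD8 and −0.05 in Th2 cells. Max differed by 0.33 (adjusted p = 0.168) and Mxi1 by −0.35 (adjusted p = 0.160), lower in CD8 (−0.20) and in Th2 cells (−0.49). Scaled to ribosomal protein genes, which moved the median of all genes by −0.37, Mxi1 passed at −0.75 (adjusted p = 0.0293, limma). With only 4 libraries, all 4 calls were lost when genes of any level entered the fit (adjusted p = 0.262 to 0.283).

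In cells given actinomycin D the same contrast looked different. Stimulated cells were higher than resting cells in Mxi1 (0.51, SE 0.11, adjusted p = 3.9e-05, limma) and Mxd1 (0.48, SE 0.13, adjusted p = 0.00315), so 2 of 8 were higher and 0 lower, against 13.1% of tested genes higher and 9.74% lower (22.9% in either direction). This fit had 1 residual degree of freedom. Its SE and p-values rest on the mean-variance trend over all genes and not on each gene's own spread, so the small p-values are no measure of how well Mxi1 or Mxd1 repeat. Mxi1 was higher in both cell types (0.50 in CD8, 0.53 in Th2), and Mxd1 by 0.79 in CD8 and 0.18 in Th2 cells. Neither passed when the spread was estimated over all 8 libraries (adjusted p = 0.411 for Mxi1 and 0.68 for Mxd1), where 10 genes in all passed, or when genes of any level entered (adjusted p = 0.434 for Mxi1 and 0.58 for Mxd1). Max passed with ribosomal scaling (0.48, adjusted p = 0.0305, limma), which moved the median of all genes by 0.29, and Mxd4 with quantile scaling (−0.32, adjusted p = 0.0414). Myc differed by −0.03 (95% interval −0.27 to 0.20), with 0.06 in CD8 and −0.13 in Th2 cells. Mycn, with few reads, differed by 0.40 (adjusted p = 0.359), Mxd3 by −0.37 (adjusted p = 0.125), Mxd4 by −0.27 (adjusted p = 0.0828) and Mnt by −0.08 (adjusted p = 0.719).

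Whether the gap between stimulated and resting cells differed with the drug was tested as an interaction over all 8 libraries. It differed for 3 of the 8 genes, 2 upward and 1 downward, against 7.06% of tested genes upward and 7.44% downward (14.5% in either direction). The gap of Myc was lower with actinomycin D, with a difference of −1.66 on the log2 scale (SE 0.42, adjusted p = 0.0419, limma). That of Mxd3 was 1.86 higher (SE 0.41, adjusted p = 0.0301) and that of Mxd4 1.05 higher (SE 0.25, adjusted p = 0.0352), which means a smaller drop. Mycn (−1.29, adjusted p = 0.260), Mnt (−0.69, adjusted p = 0.0658) and Mxi1 (0.86, adjusted p = 0.0901) did not pass. Mxi1 passed with ribosomal scaling (1.54, adjusted p = 0.00729, limma), which moved the median of all genes by 0.67. Without the untreated stimulated Th2 library Mnt (−0.79, adjusted p = 0.0449) and Mxd1 (−1.25, adjusted p = 0.0253) passed. The same numbers say that the drop of Myc with actinomycin D was larger in stimulated cells. These 3 calls were fragile, since each was lost when any 1 of 6 libraries was left out (resting CD8, resting Th2 or any drug-treated library), although the directions held. For Myc the value was then between −2.07 and −1.25, with adjusted p = 0.0535 to 0.172 (limma). With edgeR none of the 3 passed (adjusted p = 0.0599 for Myc, 0.085 for Mxd3 and 0.0936 for Mxd4), and scaled to ribosomal protein genes Myc was at −0.98 (adjusted p = 0.0905, limma). Myc was also lost with quantile scaling (adjusted p = 0.0609) and, like Mxd4, when genes of any level entered (adjusted p = 0.0655 for Myc and 0.0578 for Mxd4), and Mxd3 was lost with DESeq2 (adjusted p = 0.0532).

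**Figure D4:**
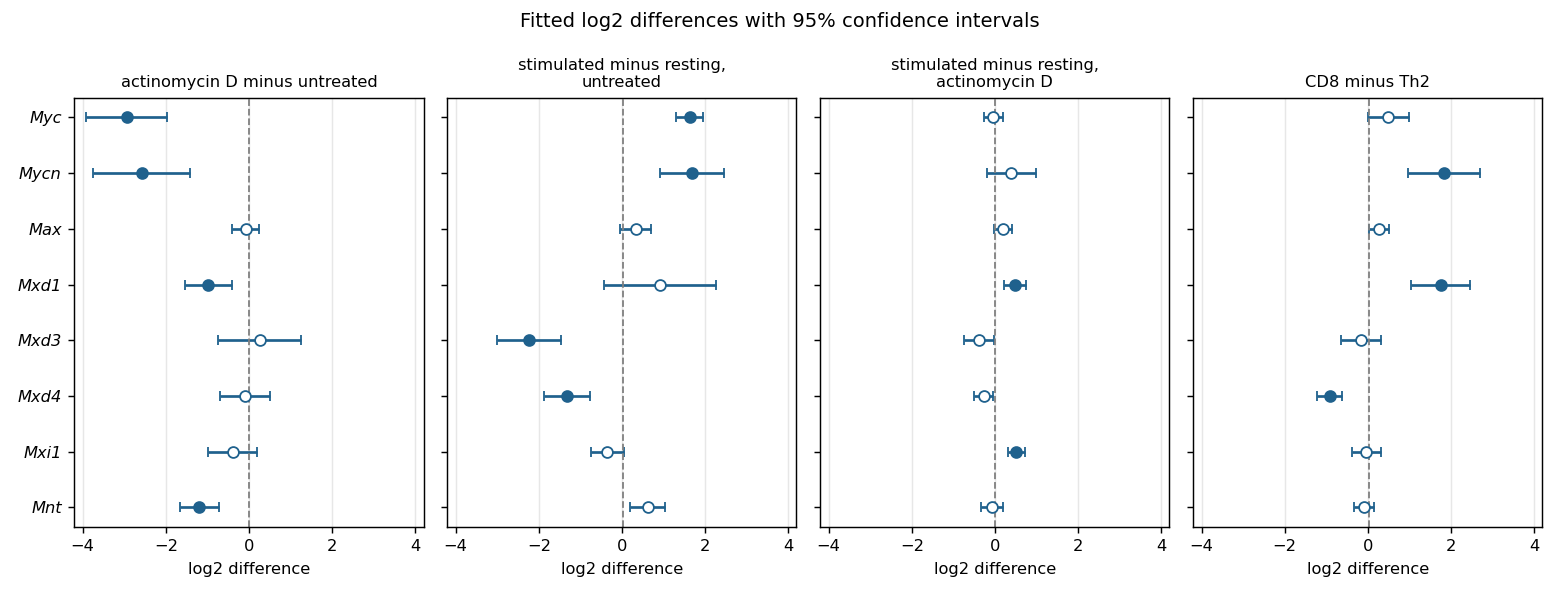
Log2 difference of each gene with its 95% interval in each comparison, filled where the adjusted p was under 0.05 and open where not, with the median of all tested genes as a dashed grey line. Myc stands at −2.94 for actinomycin D, 1.63 for stimulation of untreated cells and −0.03 for stimulation with actinomycin D.

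CD8 libraries were compared with Th2 libraries over the 4 matched conditions. Mycn and Mxd1 were higher and Mxd4 was lower in CD8 cells, 2 and 1 of the 8 genes, against 18.1% of tested genes higher and 18.7% lower (36.8% in either direction). Mycn averaged 272 ± 298 normalised reads in CD8 and 102 ± 119 in Th2 libraries (SD, n = 4 conditions each), a log2 difference of 1.84 (SE 0.37, adjusted p = 0.00779, limma). Mxd1 averaged 1581 ± 1396 in CD8 and 380 ± 106 in Th2 libraries (1.75, SE 0.30, adjusted p = 0.00367). Mxd4 averaged 652 ± 212 in CD8 and 1294 ± 602 in Th2 libraries (−0.92, SE 0.12, adjusted p = 0.0012). All 3 kept their direction in 4 of 4 conditions and passed under all alternatives tried. Myc differed by 0.49 (adjusted p = 0.107), close to 0 in untreated cells (0.03 when stimulated, −0.08 at rest) and about 1 with actinomycin D (1.11 and 0.92). It passed when the untreated stimulated CD8 or Th2 library was left out (0.65, adjusted p = 0.030 and 0.0279). Max (0.26), Mxd3 (−0.16), Mxi1 (−0.04) and Mnt (−0.09) did not pass.

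Markers of other cells also differed between the cell types. The summed B cell list was at 136 to 231 normalised reads in CD8 and 721 to 841 in Th2 libraries, with 3 of its 4 genes at a mean of 50 or more. The myeloid list was at 30.1 to 60.0 in CD8 and 73.6 to 245 in Th2 libraries with 0 of 4 genes at 50, and Lyz2 was at 0 in both untreated CD8 libraries. The Th2 list was at 81.7 to 512 in CD8 and 30516 to 119708 in Th2 libraries, and the CD8 list at 274415 to 509040 in CD8 and 96823 to 155864 in Th2 libraries. Gzmb made up most of the CD8 list, with 476654 normalised reads in untreated stimulated CD8 and 92569 in untreated resting Th2 cells. Of that list, Prf1 and Eomes overlapped between the cell types, while Cd8a and Cd8b1 did not. The part of other cells in the cell type results was not tested.

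Whether a response differed between the cell types was tested too. For stimulation, 0 of 8 network genes and 0 of 10972 tested genes (0%) passed in limma, with 412 genes at an unadjusted p under 0.05. Mxd1, with the larger rise in CD8 cells, had a difference of 1.27 (SE 0.35, adjusted p = 0.848). For actinomycin D, 0 of 8 and again 0% of tested genes passed, with 1715 at an unadjusted p under 0.05. The drop of Myc was smaller in CD8 than in Th2 cells by 1.04 (SE 0.15, adjusted p = 0.279, and 0.0264 when genes of any level entered), that of Mycn by 1.68 (SE 0.43, adjusted p = 0.279). No other tool was run for either test, each of which had 1 residual degree of freedom.

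Genes that work with the network were counted from textbook lists chosen with earlier results of these data known. Over all tested genes, 6.59% were higher and 4.69% lower with stimulation of untreated cells, and 16.8% were higher and 21.9% lower with actinomycin D, against which each list's counts are to be read. Of 12 genes that control the stability or activity of MYC protein, 2 rose, 0 fell and 10 did not pass with stimulation of untreated cells (median log2 difference 0.00, against 0.03 over all tested genes). The kinase gene Pim1 rose by 1.64 (adjusted p = 0.0297, limma). With actinomycin D 0 rose and 5 fell, among them Aurka (−1.78, adjusted p = 0.0366), which encodes a kinase that shields MYCN from decay, and Fbxw7 (−1.27, adjusted p = 0.0466), which encodes the ubiquitin ligase that marks MYC for it.

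Of 15 corepressor and coactivator genes, 2 rose and 1 fell with stimulation (median 0.23). Zbtb17, which encodes the MYC partner MIZ1, rose by 1.99 (adjusted p = 0.0217, limma). Sin3a, the scaffold that MXD proteins recruit, fell by 0.65 (adjusted p = 0.0497). With actinomycin D 0 rose and 4 fell (median −0.16), among them Sin3a (−1.31, adjusted p = 0.0059). Of 3 tested MAX and MLX partner genes, 0 changed with stimulation, and Mga fell with actinomycin D (−0.49, adjusted p = 0.0314).

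Of 11 tested genes for RNA-binding proteins described on MYC mRNA, 2 rose and 1 fell with stimulation (median 0.22), and 2 rose and 1 fell with actinomycin D (median −0.07). Zfp36l1, whose product binds AU-rich elements and speeds decay, rose with stimulation by 1.27 (adjusted p = 0.0351, limma). Ptbp1, a splicing and translation factor, rose by 0.75 (adjusted p = 0.0425), and Tia1, a translational silencer, fell by 0.95 (adjusted p = 0.0352).

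Of 25 genes known to be activated by MYC, 3 rose, 1 fell and 21 did not pass with stimulation of untreated cells (median 0.49, against 0.03 over all tested genes). Those that rose were Srm (1.45, adjusted p = 0.0439, limma) and Odc1 (0.88, adjusted p = 0.0372), which encode enzymes of polyamine synthesis, and Ccnd2 (0.99, adjusted p = 0.0297), a cyclin gene. Tert, the telomerase gene, fell by 1.91 (adjusted p = 0.0425). With actinomycin D 2 rose and 5 fell (median −0.00). In CD8 against Th2 cells 11 were higher and 1 lower (median 0.47), against 18.1% higher and 18.7% lower over all tested genes. Of 8 tested genes known to be repressed by MYC, 1 rose and 1 fell with stimulation (median 0.06). Cdkn1b, the gene of the cell cycle inhibitor p27, fell by 2.13 (adjusted p = 0.0148) and the antiproliferative gene Btg1 rose by 1.49 (adjusted p = 0.0243). With actinomycin D 1 rose and 3 fell, with Klf2, a quiescence factor gene, at −3.11 (adjusted p = 0.0162).

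**Figure D5:**
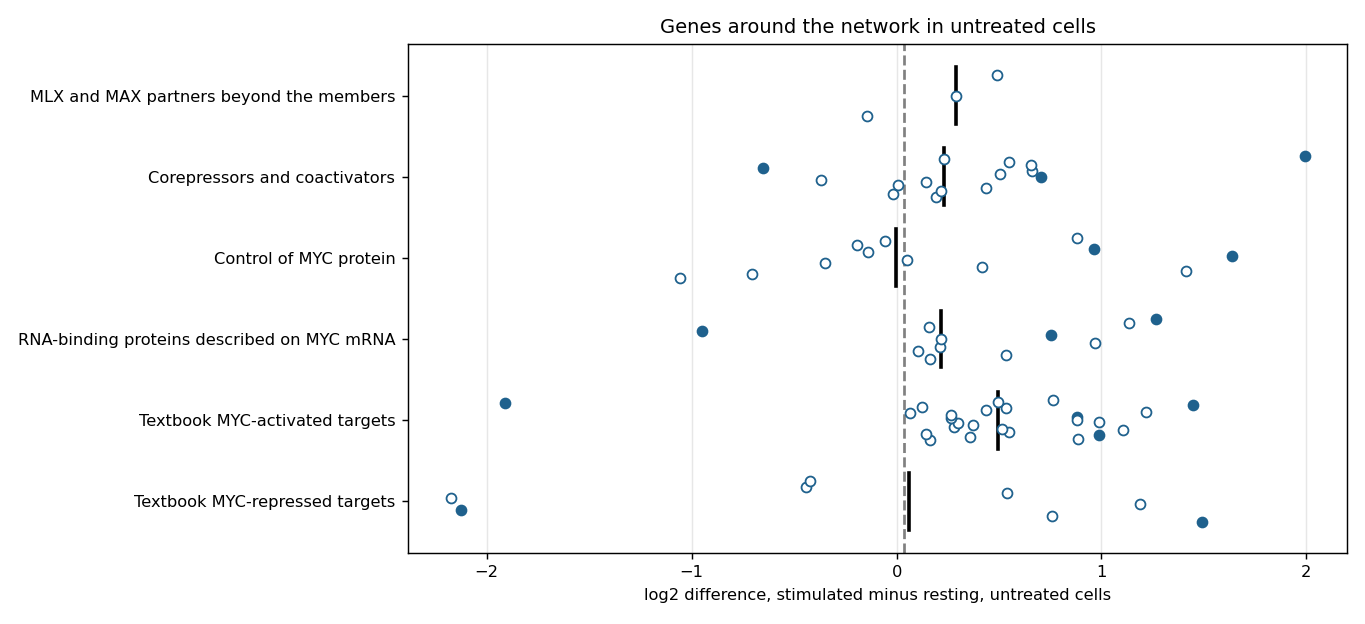
Log2 differences of the genes of each list, with filled points where the adjusted p was under 0.05, a black bar at the median of the list and a dashed grey line at the median of all tested genes. MYC-activated targets had a median of 0.49 with stimulation of untreated cells.

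The genes whose levels tracked each member most closely over the 8 libraries were ranked by Pearson's r of log2(value + 1), as a description with no test. The libraries share conditions, so such likeness is common. Nearest to Myc was Frmd4b (r = 0.99), with Pprc1, Nol9, Dusp5 and Mettl13 next. Nearest to Mnt was S1pr2 (r = 0.996), followed by Traf2, Rps6kc1, Spn and Plec. Mxd4 was closest to Cpt1a (r = 0.97) and Mxi1 to Cpt2 (r = 0.95). Mxd3 was closest to Zfp810 (r = 0.98) and then the cell cycle inhibitor gene Cdkn2c, Mxd1 to Ltb (r = 0.95), Mycn to Emp1 (r = 0.97) and Max to Homer1 (r = 0.95). Among the members, Myc and Mnt had r = 0.96 and Myc and Mycn r = 0.90, while Max and Mxd4 had r = −0.85.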

How the data were processed

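For RNA-seq the authors deposited a normalised signal for each gene. Per the study's methods and processing notes, reads were aligned to mm10 with STAR. The deposited values are whole reads divided by 1 size factor per library, read from their steps, which did not depend on gene length. The study's methods instead name fragments scaled by length. For drug-treated stimulated CD8 cells, whose size factor is close to 1, recovered reads were not used in count tests. Sources used here give no counting tool, annotation or strand use. GCLiPP reads were aligned with Bowtie2, duplicates collapsed, all mouse experiments pooled and peaks called in 3′ UTRs. The deposited peak score is the authors' and its meaning is not stated. A second deposited table was not used.

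Genes with a mean of at least 50 were tested on log2(value + 1) with limma 3.58.1 (R 4.3.3, mean-variance trend), Benjamini-Hochberg over all tested genes, called at 0.05. Adding 1 understates fold changes of low genes. Actinomycin D pairs were blocked by cell type and state. No condition was repeated, so p-values reflect only the spread among these single libraries, part of which may be technical. For stimulation with actinomycin D the spread was the trend over all genes, with no part from a gene's own values. edgeR 4.0.16 and DESeq2 1.42.0 on recovered counts of 7 libraries (without drug-treated stimulated CD8), other scalings, minimums and left-out libraries were alternatives. Fits were also run on simulated data with the same spread setting for all genes and no differences beyond those put in. Such data do not show how the fits behave at the spread of these libraries. Peak sequence was read from GENCODE M21 transcripts.

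All 8 members were named throughout. Of the lists, genes past the threshold with stimulation of untreated cells or actinomycin D could be named, up to 6 per list by absolute change, and for likeness the 5 genes with the highest r. The members and lists were chosen with earlier results of these data known. Some genes of the lists are not reported here by name.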

Additional observations from a re-analysis of the deposited data

Results flagged for a closer look

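The gap between stimulated and resting cells differed between actinomycin D and untreated cells, by the test of the difference itself (limma interaction over 8 libraries), for 3 of the 8 network genes. The difference was −1.66 on the log2 scale for Myc (adjusted p = 0.0419), 1.86 for Mxd3 (adjusted p = 0.0301) and 1.05 for Mxd4 (adjusted p = 0.0352). These calls were fragile. Of 16 alternatives, Myc passed in 6 and Mxd3 and Mxd4 in 8 each, although the directions held. Mxd3 values are also uncertain because of its overlap with Prelid1. Myc was higher in stimulated than in resting cells of both untreated cell types (1.68 in CD8, 1.57 in Th2) and differed little with actinomycin D (0.06 and −0.13). By the study's methods the drug came after stimulation, for a time not given. The drug-treated values are therefore levels left after the drug, and they do not show whether Myc rose before it. Mxd3 and Mxd4 were lower after stimulation in both untreated cell types, and the difference was smaller with actinomycin D.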

How the results depend on the processing

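Of 648 alternative values of the 8 genes, 562 kept their direction and side of the threshold, 40 lost a call, 15 gained one and 31 changed sign, of which 0 were called in the results above. Not all of these are separate checks. The matched-condition block for CD8 against Th2 repeats the main fit. For actinomycin D and for CD8 against Th2, leaving out either library of a matched pair gives the same difference. The edgeR and DESeq2 fits lacked drug-treated stimulated CD8, so they also differ from the main fits by that library. Another 30 alternatives were not run: single libraries could not be left out of either stimulation contrast or the cell type interactions, and edgeR and DESeq2 could not be fitted to stimulation with actinomycin D or those interactions. Where a cause is not plain from the setting it was not tested.

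The count of genes that passed for actinomycin D (4245) was 2186 with edgeR and 2220 to 4052 with 1 library left out. The fit that gave 2220 was without drug-treated stimulated CD8, the library that edgeR also lacked. For stimulation of untreated cells (1238) it was 0 with no minimum level, 3581 scaled to ribosomal protein genes, 2030 with DESeq2 and 3088 in the model of 8 libraries. For stimulation with actinomycin D (2511) it was 0 with no minimum and 10 in that model. For the interaction (1591) it was 940 with no minimum, 4905 with ribosomal scaling, 321 with edgeR and 25 to 3315 with 1 library left out (25 without drug-treated stimulated Th2, 3315 without untreated stimulated CD8). For CD8 against Th2 (4037) it was 2358 in an additive model and 2380 to 4741 with 1 library left out. The interaction of stimulation with cell type gave 2 with no minimum, and that of actinomycin D with cell type gave 97 with no minimum and 1 each with a minimum of 10 and with ribosomal scaling. Peaks with a motif (14 of 34) were 23 in the wider window and 7 of 15 among the higher scores.

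Ribosomal scaling moved the median of all genes by −0.63 (actinomycin D), −0.37 and 0.29 (stimulation without and with it) and 0.67 (interaction), and quantile scaling by 0.13 (actinomycin D). Higher calls were then 44 of 4555, 524 of 3581, 3221 of 3245 and 4614 of 4905 with ribosomal scaling and 2597 of 4609 with quantile scaling. edgeR gave 1478 of 3776 for CD8 against Th2.

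Sign changes for actinomycin D were Max 0.10 and Mxd4 0.036 (quantile), Mxd3 −0.37 (ribosomal), −0.17 (edgeR), −0.13 (DESeq2), −0.67 (resting pairs) and −0.11 to 0.60 with 1 library left out (under 0 without either stimulated CD8 library), Mxd4 0.42 and Mxi1 0.039 (stimulated pairs), and Mxd4 −0.34 to 0.10 with 1 library left out (above 0 without any resting one). For stimulation, ribosomal scaling gave Max −0.073 without the drug and Myc 0.25, Mxd4 0.0068 and Mnt 0.20 with it. For the interaction Max was 0.55 (ribosomal), 0.036 (edgeR) and −0.30 to 0.032 with 1 library left out (above 0 without resting Th2), and Mxd1 0.25 (ribosomal), −1.25 to 0.39 with 1 library left out (above 0 without stimulated or resting untreated CD8). Mxi1 in CD8 against Th2 was 0.012 (ribosomal) and −0.15 to 0.11 with 1 library left out. By cell type, Mycn stimulation was −0.011 (quantile) and Mnt actinomycin D 0.067 (ribosomal).

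With no replicate block for the pairs, actinomycin D gave 5062 calls. With the matched condition as a replicate block CD8 against Th2 gave 4037, but this is the main model written another way, so it is no separate check. No paired analysis was possible for GCLiPP because its peak list is pooled. Lengths by all annotated exons merged were an alternative chosen after seeing the data, and gave Max 575 and Mxi1 472 per kb. Mycn counts of 20 and 13 reads limit its drug-treated Th2 values.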
